A study of Mus musculus with 8 samples.

Results

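Dopamine receptor genes and genes typical of striatal projection neurons were examined in the hippocampus of BTBR mice and of B6 controls. The 9 genes were Drd1a, Drd2, Adora2a, Gpr6, Ppp1r1b, Rgs9, Rarb, Penk and Tac1, and every array probe that carries one of these names was taken, which gave 15 of the 41174 non-control probes and 9 of their 27373 gene names. Of the 15 probes, 12 passed the filter on dim signal and were tested among 27981 probes, and each of the 9 genes kept at least 1 of them. RNA came from 4 BTBR T+ Itpr3tf/J (BTBR) and 4 C57BL/6J (B6) males aged 5 months, with no drug treatment and 1 mouse per single-color array. Both are inbred strains that differ at many loci, and no single gene sets them apart. The sample records list C57BL/6J as strain background for the BTBR mice too, while their title, source and genotype give BTBR. Each strain had replicates 1 and 2 on slide 1 and replicates 3 and 4 on slide 2. Values are log2 intensities after subtraction of the local background and quantile normalization, and differences are BTBR minus B6.

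The striatum is built mainly of GABAergic projection neurons of a pair of kinds. Direct pathway neurons carry the dopamine D1 receptor and the peptide substance P, and indirect pathway neurons carry the D2 receptor, an adenosine receptor (Adora2a) and enkephalin. Both kinds contain DARPP-32 (Ppp1r1b) and Rgs9, which act downstream of these receptors. The hippocampus holds far less of these transcripts, although D1-like receptors, enkephalin and tachykinin neurons are known there.

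Between 56.8% and 71.9% of probes were well above background on an array, the median intensity of an array after background subtraction ranged from 332 to 435, and no spot of the 9 genes was saturated. The precision of every comparison is limited by the number of arrays. The tissue carried markers of hippocampal cells on each array. All 8 dentate granule cell markers and all 8 CA pyramidal cell markers of the lists used here passed the filter, with a summed log2 level between 15.48 and 16.09 in B6 and between 15.20 and 15.61 in BTBR for the dentate list, and between 17.61 and 17.83 in B6 and between 16.92 and 17.83 in BTBR for the CA list.

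The levels of the 9 genes differed more between single mice of a strain than between the strain means. BTBR 2 (replicate 2 of BTBR) was the highest array for all 12 tested probes. For 11 of them B6 2 followed and then BTBR 1, an order that 263 of the 27981 tested probes (0.94%) had. The exception was the brighter of the Adora2a probes. In the other 11, the third array lay between 0.24 and 1.31 log2 units above the fourth, and the 5 arrays at the bottom spanned between 0.12 and 1.10. Over the arrays on which a probe was well above background, the ratio of the highest to the lowest was between 6.01-fold (Gpr6, 7 arrays) and 34.0-fold (Rgs9, 8 arrays). The median range over 8 arrays was 0.44 log2 units over all tested probes and its 90th percentile was 1.06, against 2.59 to 5.09 for these 11 probes over the arrays on which each was well above background. The 3 high arrays were all on slide 1, and B6 1, the other array of that slide, was low. Because of these arrays, the strain comparison of the 9 genes is given with and without the 3. Without them, B6 1, B6 3 and B6 4 are compared with BTBR 3 and BTBR 4, and of these only B6 1 was on slide 1. Correlations are given with and without B6 2 and BTBR 2, since fewer than 6 arrays would remain without BTBR 1.

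**Figure D1:**
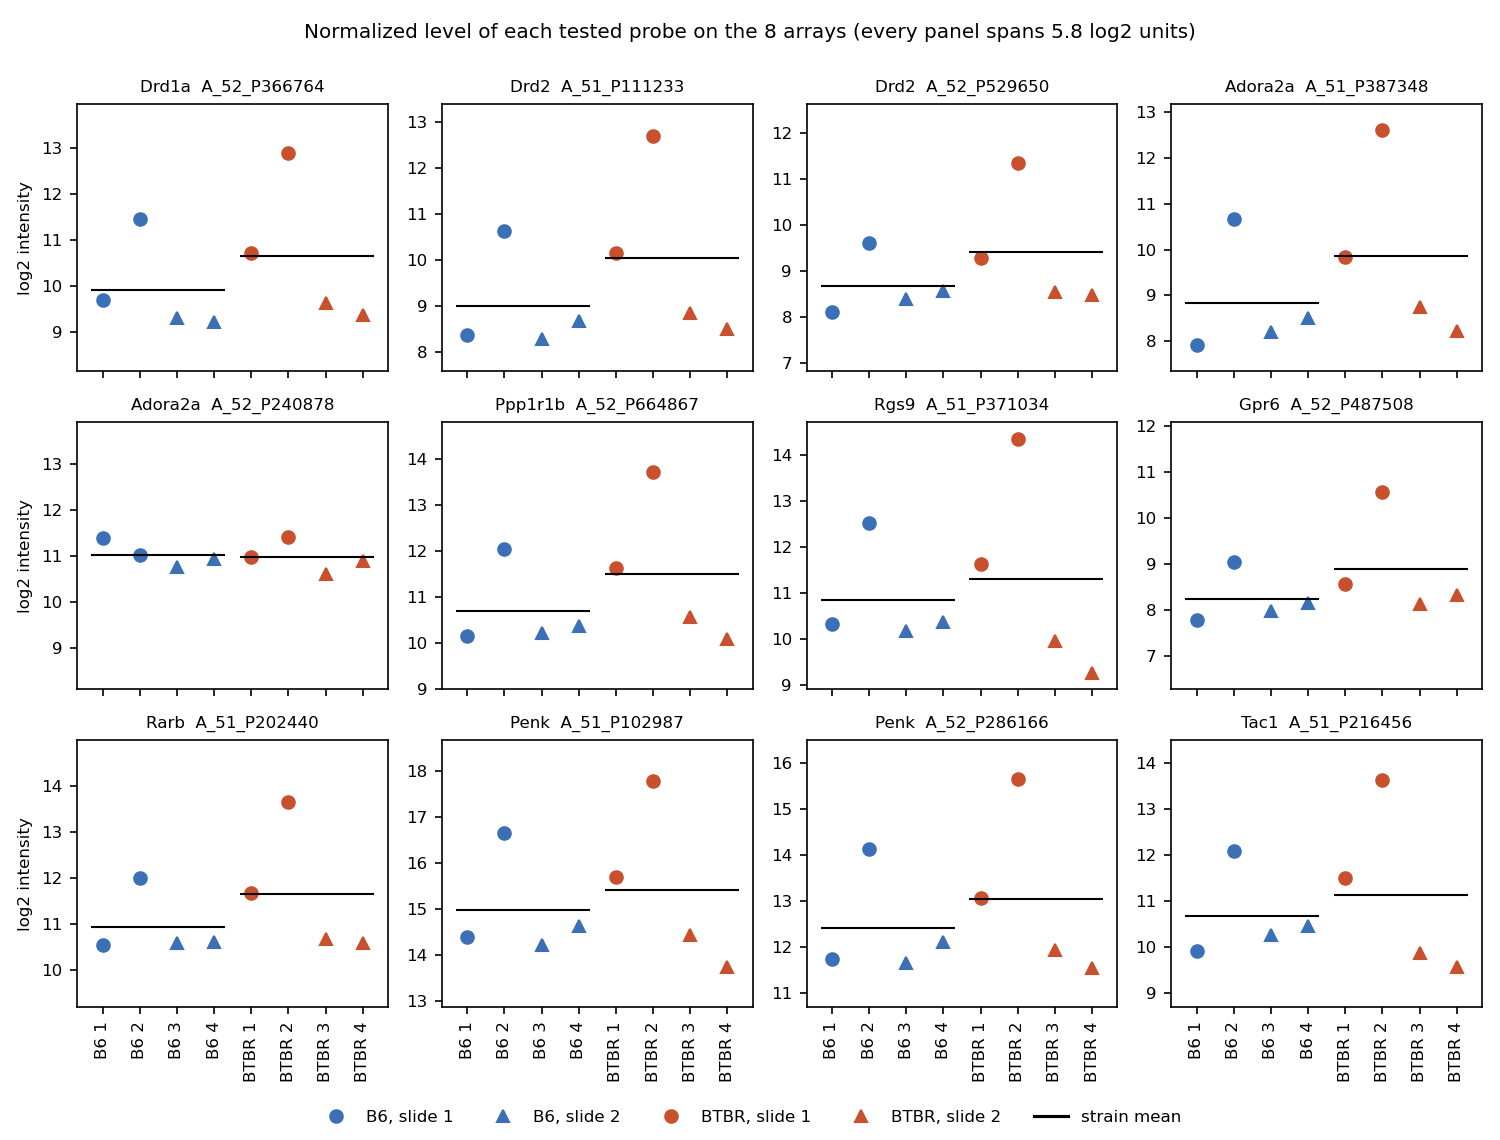
Normalized log2 intensity (vertical axis) of each of the 12 tested probes on the 8 arrays (horizontal axis), with B6 in blue, BTBR in orange, circles for slide 1, triangles for slide 2 and a black line at each strain mean (n = 4). BTBR 2, B6 2 and BTBR 1 stand above the other arrays in 11 panels, and the panel of Adora2a probe A_52_P240878 is nearly flat.

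Among the receptors, Drd1a encodes the D1 receptor, which couples to stimulatory G proteins and raises cAMP. Its probe A_52_P366764 (mm9, chr13:54147277-54147336, minus strand) read 9.68, 11.44, 9.30 and 9.21 in B6 1 to 4 and 10.72, 12.87, 9.61 and 9.35 in BTBR 1 to 4. B6 2 lay above 3 of the 4 BTBR arrays, so the strains overlapped. The difference was 0.73 ± 0.79 (SE of the limma fit, n = 4 and 4), with a limma adjusted p of 0.70.

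Drd2 encodes the D2 receptor, which couples to inhibitory G proteins. Its first probe, A_51_P111233 (mm9, chr9:49215761-49215820, plus strand), read 8.38, 10.64, 8.29 and 8.67 in B6 and 10.16, 12.69, 8.85 and 8.50 in BTBR. Its second probe, A_52_P529650 (mm9, chr9:49215047-49215106), lies 714 bases away and read 8.10, 9.61, 8.39 and 8.56 in B6 and 9.29, 11.34, 8.54 and 8.47 in BTBR. Both probes ranked the same 3 arrays on top. Their differences were 1.05 ± 0.91 and 0.75 ± 0.62, with limma adjusted p-values of 0.62 and 0.60. Over the 8 arrays the Drd2 probes had an r of 0.99, and 0.95 without B6 2 and BTBR 2. In B6 1 neither Drd2 probe was well above background, and the same held for Gpr6 and Adora2a probe A_51_P387348 in that array.

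Adora2a encodes the stimulatory adenosine receptor of indirect pathway neurons. Its 2 probes gave different patterns. A_51_P387348 (mm9, chr10:74797351-74797411, plus strand) read 7.92, 10.66, 8.21 and 8.52 in B6 and 9.85, 12.59, 8.76 and 8.23 in BTBR, with a difference of 1.03 ± 0.95 (limma adjusted p = 0.65). A_52_P240878 (mm9, chr10:74795972-74796031), which starts 1379 bases upstream and was the brighter, read 11.40, 11.01, 10.75 and 10.94 in B6 and 10.99, 11.41, 10.61 and 10.90 in BTBR. Its difference was -0.05 ± 0.18 (limma adjusted p = 0.92). Over the 7 arrays on which it was well above background the first probe varied 20.8-fold, and the second varied 1.74-fold over 8 arrays, and their r was 0.45, or -0.24 without B6 2 and BTBR 2. What each of them binds besides Adora2a was not tested.

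Gpr6 encodes an orphan receptor that raises cAMP without an added ligand and is enriched in indirect pathway neurons. A_52_P487508 (mm9, chr10:40790849-40790908, minus strand) read 7.80, 9.05, 7.99 and 8.15 in B6 and 8.57, 10.58, 8.14 and 8.34 in BTBR. It had the smallest range of the 11 probes in that order. The difference was 0.66 ± 0.52 (limma adjusted p = 0.58).

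Of the signaling proteins, Ppp1r1b encodes DARPP-32, the phosphatase inhibitor that relays dopamine and cAMP signals. A_52_P664867 (mm9, chr11:98216810-98218184, plus strand, a span that is longer than the probe) read 10.15, 12.04, 10.22 and 10.37 in B6 and 11.62, 13.71, 10.55 and 10.08 in BTBR, with a difference of 0.79 ± 0.76 (limma adjusted p = 0.66). Rgs9 encodes a protein that speeds the shutdown of G proteins in striatum and retina. A_51_P371034 (mm9, chr11:109086809-109086868, minus strand) read 10.32, 12.53, 10.17 and 10.37 in B6 and 11.64, 14.36, 9.97 and 9.27 in BTBR. Rgs9 had both its highest and its lowest array in BTBR, and its difference was 0.46 ± 1.04 (limma adjusted p = 0.87).

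Rarb encodes retinoic acid receptor beta, a nuclear receptor of the developing and adult striatum. A_51_P202440 (mm9, chr14:17263511-17263570, minus strand) was spotted 10 times on each array and read 10.53, 12.00, 10.57 and 10.60 in B6 and 11.66, 13.64, 10.66 and 10.57 in BTBR. Within an array the SD of its spots was between 0.10 and 0.25, against a range of 3.11 between arrays. The difference was 0.71 ± 0.66 (limma adjusted p = 0.65). The other Rarb probe, A_52_P495759, was well above background on 1 B6 and 2 BTBR arrays and was not tested. It too was highest in BTBR 2 (8.40) and next in B6 2 (8.02), within a range of 0.85.

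Penk encodes proenkephalin, the precursor of the enkephalins. A_51_P102987 (mm9, chr4:4060735-4060794, minus strand) read 14.40, 16.65, 14.21 and 14.63 in B6 and 15.69, 17.79, 14.43 and 13.75 in BTBR. A_52_P286166 (mm9, chr4:4061458-4061517) read 11.75, 14.14, 11.66 and 12.12 in B6 and 13.06, 15.66, 11.94 and 11.54 in BTBR. The Penk probes put all 8 arrays in the same order (rho = 1, r = 0.99). Their differences were 0.44 ± 0.87 and 0.63 ± 0.90, with limma adjusted p-values of 0.85 and 0.78.

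Tac1 encodes the precursor of substance P and neurokinin A. A_51_P216456 (mm9, chr6:7507722-7509136, plus strand, a span longer than the probe) read 9.92, 12.07, 10.25 and 10.44 in B6 and 11.49, 13.62, 9.87 and 9.56 in BTBR. The difference was 0.46 ± 0.87 (limma adjusted p = 0.84). The other Tac1 probes, A_52_P196019 and A_52_P630806, were well above background on 1 array and on 0 arrays and were not tested.

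The probes that read these patterns are 60 bases long, and 5 of them are shown for the receptors and peptides. Each of the 5 keeps at least 1 reading frame free of stop codons. In the Penk probe the capitals mark an 18-base stretch that occurs in 2 copies, and repeated enkephalin units are what the precursor is known for. The nearly flat Adora2a probe is shown beside the Drd2, Gpr6 and Tac1 probes that varied with the other members, and these carry no capitals.
Penk A_52_P286166: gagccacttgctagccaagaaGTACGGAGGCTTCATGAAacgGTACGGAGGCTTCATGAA
Adora2a A_52_P240878: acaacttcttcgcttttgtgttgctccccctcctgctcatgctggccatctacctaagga
Drd2 A_52_P529650: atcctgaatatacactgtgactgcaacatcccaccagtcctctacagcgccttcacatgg
Gpr6 A_52_P487508: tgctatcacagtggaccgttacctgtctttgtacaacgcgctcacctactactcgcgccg
Tac1 A_51_P216456: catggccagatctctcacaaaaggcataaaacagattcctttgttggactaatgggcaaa

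None of the 12 tested probes was called between strains by limma at an adjusted p under 0.05, against 7.61% of all tested probes, and 0 of the 12 had an unadjusted p under 0.05, against 18.5% of all tested probes. Their differences were between -0.05 and 1.05, 11 of 12 were above 0, and each was smaller than the larger of the strain SDs. The median difference of the 12 probes was 0.68, beside 0.01 over all tested probes. The BTBR and B6 arrays overlapped for each probe, whereas 14.2% of all tested probes had no overlap. Exact permutation p-values (two-sided) lay between 0.40 and 0.77, where the smallest value that 4 arrays against 4 allow is 0.0286.

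The rank product, which is the test the study's methods name and which ranks differences within pairs of arrays without an SD, called 2 of the 12 probes as up-regulated in BTBR. They were Drd2 A_51_P111233 (pfp = 0.0146) and Adora2a A_51_P387348 (pfp = 0.0116), and it called 1.66% of all tested probes in that direction. Without BTBR 2 it called 0 of the 12 as up-regulated (1.05% of all tested probes), and without BTBR 1 it called 1, Adora2a (1.04%). Without B6 2 it called 7 (1.54%), and without all 3 of these arrays it called 0 (0.365%). On simulated arrays with 200 changed probes among 27981, the rank product found 200 of them with 154 false calls, and limma found 196 with 11 false calls. These counts are over all simulated probes and do not show whether the 2 calls above are true or false.

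The size of these differences changed with the arrays included. Within slide 1 they were between 1.15 and 1.93 for 11 probes and -0.01 for Adora2a A_52_P240878, and within slide 2 they were between -0.65 and 0.23. Limma called 0 of the 12 in either slide, against 8.65% of all tested probes in slide 1 and 3.7% in slide 2, with the lowest adjusted p of the 12 at 0.24 and 0.86, and the strain by slide interaction had adjusted p-values between 0.55 and 0.92. Without BTBR 2 the differences were between -0.55 and 0.17, and 6 of 12 were below 0. Without B6 2, BTBR 1 and BTBR 2 they were between -0.67 (Rgs9, limma adjusted p = 0.18) and 0.28, and limma called 0 of the 12, against 4.23% of all tested probes in that fit. In that fit 2 of the 12 probes had an unadjusted p under 0.05, against 14.2% of all tested probes, and both were lower in BTBR, against 7.42% of all tested probes in that direction. They were Rgs9 and Tac1, whose differences were -0.67 ± 0.20 and -0.49 ± 0.17. The arrays left out were those on which these genes were high. The values tested thus also chose the arrays, and the p-values of that fit are descriptions only.

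**Figure D2:**
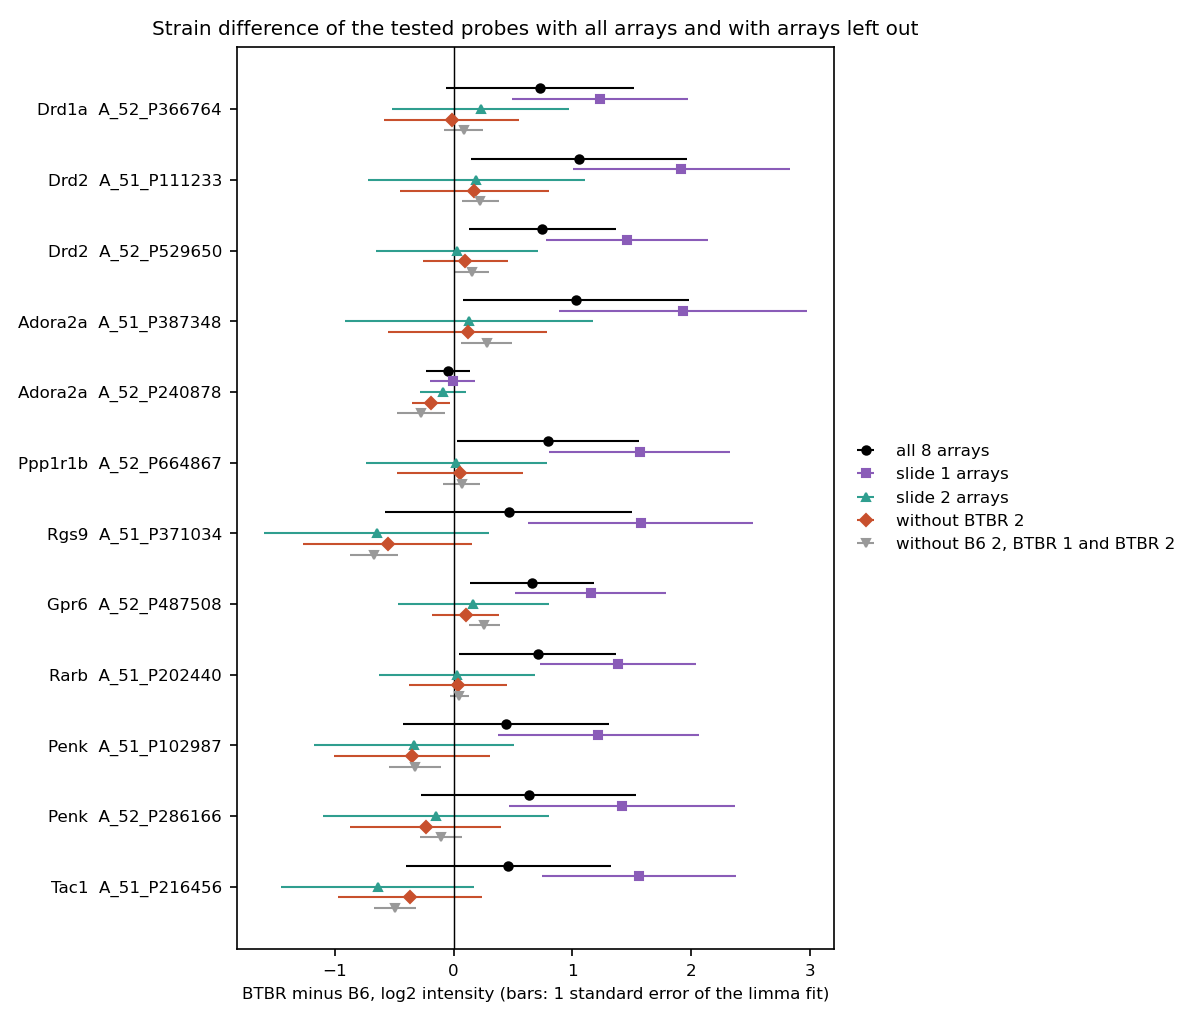
Strain difference of each tested probe (horizontal axis, BTBR minus B6 in log2 intensity, bars of 1 SE from the limma fit) with all 8 arrays, within each slide, without BTBR 2 and without 3 arrays. The black points of 11 probes lie above 0, between 0.44 and 1.05, and the points without BTBR 2 lie between -0.55 and 0.17.

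One probe per gene, the brightest tested, entered 36 pairs. By these probes 8 of the 9 genes varied together over the 8 mice, and Adora2a, read by the brighter of its probes, had lower r with each of them. In the 28 pairs without Adora2a, Pearson r was between 0.91 and 0.998 with a median of 0.98, and the exact permutation p adjusted over all 36 pairs was between 0.0014 and 0.0063. Spearman rho in these pairs was between 0.62 and 0.98 with a median of 0.75, and 13 of the 28 had an adjusted exact p under 0.05. The members were chosen with earlier results of these data known, so these p-values describe the 8 arrays and are no independent test. Removal of the strain means left r between 0.93 and 0.998, and removal of the slide means left it between 0.92 and 0.996.

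Much of r rested on B6 2 and BTBR 2, the arrays farthest from the median in each of these 28 pairs. Without them r was between 0.38 (Rgs9 with Gpr6) and 0.98 with a median of 0.88. BTBR 1 was then the highest array for each of these genes. Over those 6 arrays 11 of the 28 pairs had an exact permutation p under 0.05 before adjustment, and none of the 28 had one after it, with the lowest adjusted exact p at 0.0786. Among the 5 lower arrays the members did not share 1 order: the 11 probes gave 9 different orders of them. No correlation was computed over these 5 arrays.

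The 8 pairs with Adora2a, which the brightest-probe rule gives to A_52_P240878, had r between 0.50 and 0.59, with adjusted exact permutation p-values between 0.15 and 0.22, and removal of the slide means left r between -0.03 and 0.20. The dimmer Adora2a probe had r between 0.97 and 0.996 with the other 8 genes. Against the mean of the other members, each of the remaining 11 tested probes had r between 0.95 (Gpr6) and 0.995 (Ppp1r1b). These values, and those of the dimmer Adora2a probe, are over all 8 arrays. Without B6 2 and BTBR 2, r with the mean of all 9 genes was 0.65 for Gpr6, 0.97 for Ppp1r1b and 0.13 for Adora2a A_52_P240878.

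**Figure D3:**
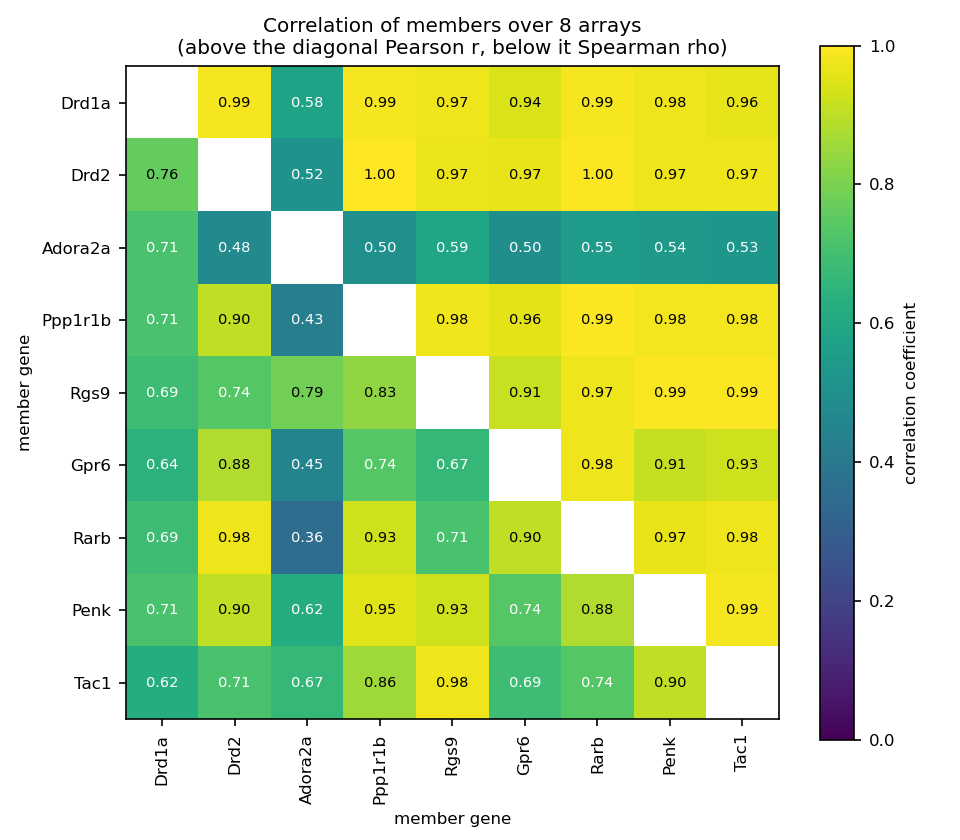
Correlation of each pair of the 9 genes over the 8 arrays, 1 probe per gene, with Pearson r above the diagonal and Spearman rho below it and color running from 0 to 1. The pairs without Adora2a have r between 0.91 and 0.998 and rho between 0.62 and 0.98. The pairs with Adora2a have r between 0.50 and 0.59 and rho between 0.36 and 0.79.

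The bases before the transcription start of the members were searched for short motifs on both strands. The RefSeq promoter table (GRCm38.p6) held 6 of the 9 genes in 7 windows, with Drd1a listed as Drd1 and with Adora2a, Ppp1r1b and Penk not among them, and the 250 bases before the start were used. TGACG, the core of the cAMP response element, was present for 2 of the 6 genes (Gpr6 and Tac1) and in 17.8% of all 32851 windows. Gpr6 alone of the 6 held the full palindrome TGACGTCA, which 1.55% of all windows held and which accounts for both of its TGACG matches. GGGCGG, the GC box, was present for 4 of the 6 (Drd1a in 1 of its 2 windows, Drd2, Rgs9 and Tac1) and in 32.7% of all windows. The direct repeat GTTCACNNNNNGTTCAC follows the known retinoic acid response element of Rarb itself, so its presence there was given by the choice of the motif, and 2 of the 32851 windows held it. None of the 4 motifs was shared by all 6 genes. The windows of Gpr6 (chr10:41072291-41072540, minus strand), Rarb (chr14:16575477-16575726, minus strand), Drd2 (chr9:49340153-49340402, plus strand) and Tac1 (chr6:7554811-7555060, plus strand) are shown with matches in capitals, from GRCm38.p6 and not from mm9.
Gpr6: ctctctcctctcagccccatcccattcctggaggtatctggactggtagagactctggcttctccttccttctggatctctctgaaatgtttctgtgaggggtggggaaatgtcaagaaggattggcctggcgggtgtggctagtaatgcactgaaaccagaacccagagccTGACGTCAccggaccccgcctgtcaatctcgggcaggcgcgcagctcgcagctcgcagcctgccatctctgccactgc
Rarb: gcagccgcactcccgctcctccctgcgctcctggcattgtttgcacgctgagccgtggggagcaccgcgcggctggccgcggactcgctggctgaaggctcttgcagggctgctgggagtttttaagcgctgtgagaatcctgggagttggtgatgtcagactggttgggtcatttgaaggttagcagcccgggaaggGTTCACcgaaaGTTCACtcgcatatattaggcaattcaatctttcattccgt
Drd2: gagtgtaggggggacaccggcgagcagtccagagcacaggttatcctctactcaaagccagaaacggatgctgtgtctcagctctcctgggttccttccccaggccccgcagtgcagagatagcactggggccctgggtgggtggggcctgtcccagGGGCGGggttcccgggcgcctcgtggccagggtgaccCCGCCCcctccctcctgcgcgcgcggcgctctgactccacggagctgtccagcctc
Tac1: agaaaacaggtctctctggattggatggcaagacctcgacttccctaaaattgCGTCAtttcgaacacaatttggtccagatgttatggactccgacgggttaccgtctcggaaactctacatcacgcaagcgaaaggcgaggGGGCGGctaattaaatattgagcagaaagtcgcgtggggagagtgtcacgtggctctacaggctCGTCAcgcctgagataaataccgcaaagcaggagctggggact

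For the genes around the members, the member level of an array is the mean deviation of the 9 genes from their mean over the 8 arrays. It was -0.70, 0.95, -0.80 and -0.61 in B6 1 to 4 and 0.40, 2.42, -0.69 and -0.96 in BTBR 1 to 4. Correlations with it are descriptions over the same 8 mice, with no test, and 1.1% of the 18398 gene names among the tested probes had r above 0.9, with a median of 0.03 over all names. Without B6 2 and BTBR 2, 2.35% of the names had r above 0.9 over the other 6 arrays, with a median of -0.02, and BTBR 1 was then the highest array.

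Of 22 tested genes of striatal cAMP and G protein signaling, 11 had r above 0.9, and the median r was 0.89. Without B6 2 and BTBR 2, 4 of the 22 had r above 0.9 and the median was 0.79. The lowest were Ppp1cb and Ppp3ca, a calcineurin subunit, at -0.41 and -0.30 (-0.67 and -0.81 without the pair), and Gng7, a G protein subunit, went from 0.82 to -0.76. With all arrays the highest were Arpp19 (0.98), Rgs2 (0.98), Pde1b (0.97), Rasd2 (0.97) and Arpp21 (0.97). Adcy5, the adenylyl cyclase of striatal neurons, read 10.84, 11.87, 11.14 and 11.17 in B6 and 11.90, 13.44, 11.48 and 11.17 in BTBR (r = 0.95), so that BTBR 2, BTBR 1 and B6 2 were its 3 highest arrays. Limma called 0 genes of this list as up-regulated (3.31% of all tested probes) and 1 as down-regulated (4.3% of all tested probes), Ppp1cb, a phosphatase subunit, which fell by 0.44 ± 0.10 in BTBR (adjusted p = 0.03) and had r = -0.41 with the member level. Without the 3 high arrays the Ppp1cb difference was -0.32 ± 0.10 (limma adjusted p = 0.21). Limma then called 1 gene of the list, the phosphodiesterase Pde10a, against 4.23% of all tested probes. Pde10a fell by 0.87 ± 0.16 in that fit (limma adjusted p = 0.04) and had a difference of -0.37 (limma adjusted p = 0.82) with all arrays.

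Of the other genes of striatal projection neurons, 20 were tested and 10 had r above 0.9, with a median of 0.90. Without B6 2 and BTBR 2, 5 of the 20 had r above 0.9 and the median fell to 0.44. Among the transcription factors of this list, r was 0.98 for Foxp1, 0.95 for Dlx5, 0.94 for Dlx6, 0.93 for Meis2, 0.90 for Foxp2, 0.89 for Ebf1, 0.22 for Ikzf1 and -0.19 for Bcl11b. With the pair left out these were 0.82, 0.71, 0.65, 0.29, 0.94, 0.90, -0.54 and -0.88 in the same order. Bcl11b and the cannabinoid receptor gene Cnr1 (-0.30, or -0.83 without the pair) are also expressed in the hippocampus. Limma called 0 of the 20 genes, and 0 without the 3 high arrays.

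Of the remaining dopamine genes, Drd5, the other D1-like receptor, had r = -0.83 (-0.87 without B6 2 and BTBR 2) and was lowest in BTBR 2 (8.65) and BTBR 1 (8.76) against 9.50 to 10.27 on the other arrays, and its strain difference was -0.43 ± 0.38 (limma adjusted p = 0.63), or 0.18 ± 0.17 without the 3 high arrays (limma adjusted p = 0.76). Drd4 had r = 0.65 (0.88 without B6 2 and BTBR 2) and a difference of -0.12 ± 0.16 (limma adjusted p = 0.77), or -0.22 ± 0.08 without the 3 high arrays (limma adjusted p = 0.29). Drd3 did not pass the filter. Of 9 tested genes for dopamine synthesis, transport and breakdown, 1 (11.1%), Th, the enzyme that makes L-DOPA, had r above 0.9 (0.92, or 0.85 without B6 2 and BTBR 2). It spanned 1.11 log2 units, from 8.06 in BTBR 3 to 9.17 in BTBR 2. Without B6 2 and BTBR 2 the 1 gene of the 9 with r above 0.9 was Ddc (0.91, against 0.77 with all arrays). Maob went from 0.46 to 0.86 and Maoa from 0.64 to 0.10, and the list median from 0.44 to 0.38. Limma called 0 of the 2 receptors and 0 of these 9 genes.

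Among peptide systems, Pdyn, the prodynorphin gene, was the 1 of 7 tested opioid genes with r above 0.9 (0.96), and it read 13.22, 14.18, 12.68 and 12.64 in B6 and 13.48, 14.81, 13.01 and 12.70 in BTBR. Of 3 tested tachykinin genes, Tacr1, the substance P receptor, had r = 0.94, Tacr3 had 0.76 and Tac2 had 0.48. Tac2 was highest in BTBR 1 (13.69), and its strain difference of 1.30 ± 0.42 had a limma adjusted p of 0.12. Without the 3 high arrays limma called Tac2, with a difference of 1.01 ± 0.15 (adjusted p = 0.02). That fit sets B6 1, B6 3 and B6 4 against BTBR 3 and BTBR 4, with only B6 1 on slide 1, so strain and slide are partly confounded in it. Of 8 adenosine genes none had r above 0.9, 7 had r above 0, and the median was 0.61, or 0.16 without B6 2 and BTBR 2. The exception, Adora1, the A1 receptor abundant in hippocampus, had r = -0.71 with a range of 0.33, and r = 0.17 without B6 2 and BTBR 2. Of 12 retinoid genes, 2 had r above 0.9, Crabp1 (0.97) and Rxrg (0.96), a partner of Rarb, whose range was 4.70. Without B6 2 and BTBR 2, r was 0.77 for Pdyn and 0.97 for the kappa opioid receptor gene Oprk1 (0.87 with all arrays). It was 0.92 for Tacr1, 0.31 for Tacr3, 0.78 for Tac2, 0.80 for Crabp1 and 0.64 for Rxrg. Oprm1 went from 0.37 to -0.77, Pomc from 0.35 to -0.23 and Rxra from 0.43 to -0.83. Over those 6 arrays 5 of the 7 opioid and 7 of the 12 retinoid genes had r above 0. The median of the opioid list went from 0.37 to 0.77, and that of the retinoid list from 0.29 to 0.22. Limma called 0 genes in these 4 lists with all arrays, and without the 3 high arrays it called Tac2 and the retinoic acid hydroxylase Cyp26b1 (1.16 ± 0.16, adjusted p = 0.01, against 0.69 and adjusted p = 0.34 with all arrays). Of all tested probes, 7.61% were called with all arrays and 4.23% without the 3.

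**Figure D4:**
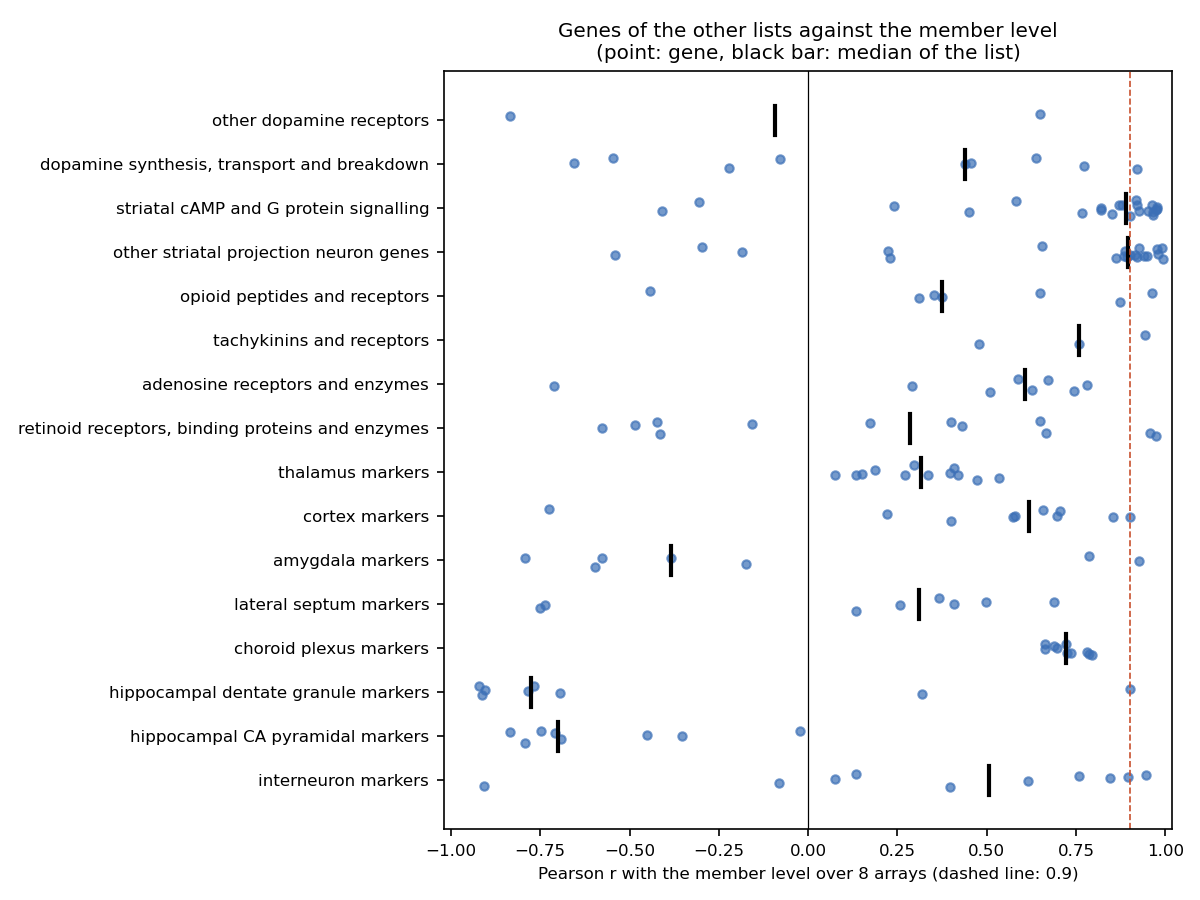
Pearson r over the 8 arrays (horizontal axis) between each tested gene of a list (point) and the member level, with the list median as a black bar and a dashed line at 0.9. The lists of striatal signaling and striatal projection neuron genes have medians of 0.89 and 0.90, and the dentate and CA marker lists have medians of -0.78 and -0.70.

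By likeness alone, 9 of the 10 genes outside the members with the highest r were Sh3rf2 (0.997), Slc35d3 (0.992), Ido1 (0.991), Arhgef39 (0.988), Serpina9 (0.985), Kcna5 (0.984), Ivns1abp (0.983), Nrn1l (0.979) and Prima1 (0.979). Ido1 read 8.56, 11.45, 8.58 and 9.01 in B6 and 10.20, 13.20, 9.16 and 8.68 in BTBR. Serpina9 read 7.72, 10.01, 7.92 and 8.25 in B6 and 9.66, 12.26, 8.59 and 7.98 in BTBR. The ranges of these 9 genes ran from 1.25 (Ivns1abp) to 4.64 (Ido1), and their r without B6 2 and BTBR 2 was between 0.87 (Kcna5) and 0.98 (Sh3rf2).

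Markers of other tissues moved with the members in part, and their part in the result was not tested. Most hippocampal markers ran against the members. Of 8 dentate granule cell markers, 3 (Dsp, Lct and Prox1) had r under -0.9, against 0.522% of all gene names, and the median was -0.78. Of the other 5, 2 had r above 0, of which Pdzd2 reached 0.90. Without B6 2 and BTBR 2 the median was -0.62, with 0 of the 8 under -0.9. Lct read 14.22, 12.00, 13.42 and 13.75 in B6 and 10.66, 8.89, 13.80 and 12.94 in BTBR, so that its 3 lowest arrays were the 3 highest of the members. Limma called 1 dentate marker, Stxbp6, against 7.61% of all tested probes. Stxbp6 fell by 0.55 ± 0.13 in BTBR (limma adjusted p = 0.03), and by 0.52 ± 0.09 without the 3 high arrays (limma adjusted p = 0.03). For 8 CA pyramidal cell markers the median r was -0.70, with 0 genes above 0, and without B6 2 and BTBR 2 it was -0.55 with 1 gene above 0.

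Other neighbors of the hippocampus had patterns of their own. The 10 choroid plexus markers had r between 0.66 and 0.79, and their summed level was between 14.15 and 15.63 in B6 and between 14.36 and 16.38 in BTBR, highest in BTBR 1 and BTBR 2 and next in B6 3. All 12 thalamus markers had r between 0.08 and 0.53, with a summed level between 14.33 and 14.62 in B6 and between 14.30 and 17.38 in BTBR, where BTBR 1 was highest at 17.38 and BTBR 2 next at 15.18. Without B6 2 and BTBR 2, r was between 0.79 and 0.97 for the 12 thalamus markers, with 10 of them above 0.9, and between 0.63 and 0.93 for the choroid plexus markers. Over those arrays the member level was 0.40 in BTBR 1 and -0.61 to -0.96 elsewhere. The thalamus sum was 17.38 in BTBR 1 and 14.30 to 14.62 elsewhere, so that these thalamus r values rest largely on the 1 array BTBR 1. The cortex list (10 tested, median r 0.62) spanned 14.16 to 15.38 in B6 and 14.52 to 15.60 in BTBR. Interneuron markers (10 tested, median r 0.51) spanned 18.77 to 18.90 and 18.71 to 18.98, lateral septum markers (8 tested, median r 0.31) 16.78 to 17.02 and 16.48 to 16.78, and amygdala markers (7 tested, median r -0.38) 16.40 to 16.78 and 15.81 to 16.52. The median r was 0.57 for the cortex, 0.34 for the interneuron, -0.02 for the lateral septum and -0.42 for the amygdala list without B6 2 and BTBR 2. Of the tested markers in these 8 lists limma called Stxbp6 and the amygdala marker Lypd1, against 7.61% of all tested probes. Lypd1 fell by 3.57 ± 0.18 (limma adjusted p = 3.34e-06). Without the 3 high arrays Lypd1 fell by 3.24 ± 0.08 (limma adjusted p = 2.42e-05), and limma also called Stxbp6, C1ql2, Wfs1, Cartpt and Cyp26b1. In that fit 4.23% of all tested probes were called. Some genes are in more than 1 list, among them Cyp26b1, which is also in the retinoid list. In whole tissue, fewer cells of a type and less RNA per cell cannot be told apart.

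**Figure D5:**
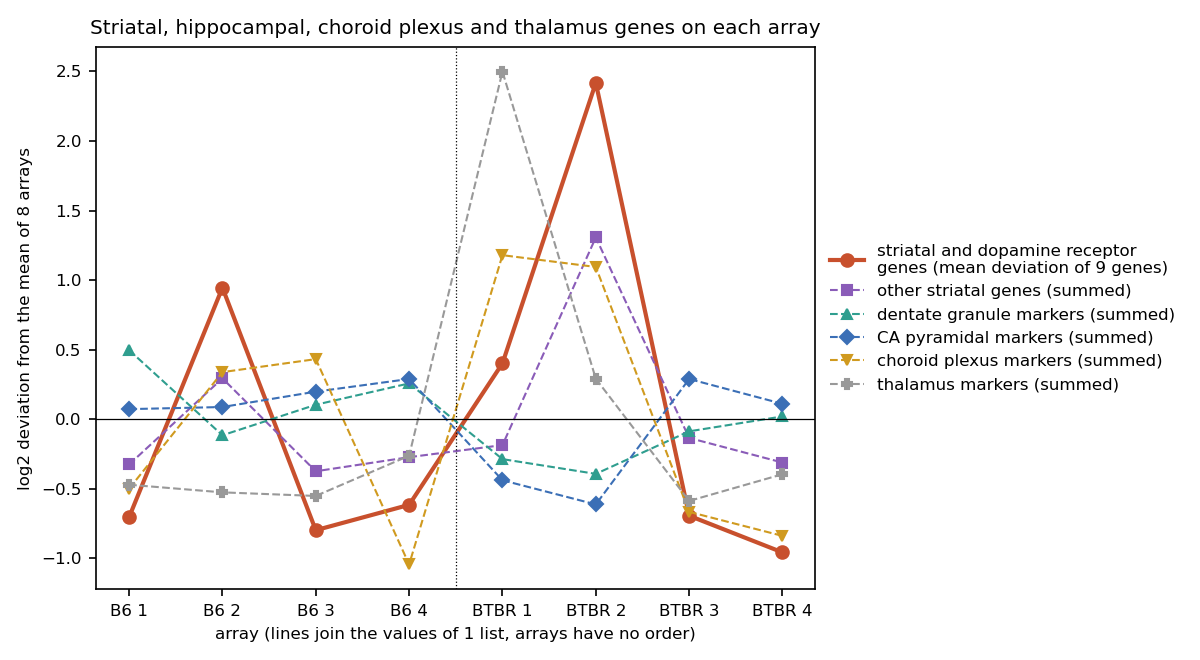
Deviation from the mean of the 8 arrays (vertical axis, log2 units) of the member level and of the summed level of 5 marker lists on each array (horizontal axis). The member level is 2.42 in BTBR 2, 0.95 in B6 2 and 0.40 in BTBR 1, the dentate and CA lists are lowest in BTBR 2, and the thalamus list is highest in BTBR 1.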

How the data were processed

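Spot intensities were deposited by the authors as scanner output (file headers name Feature Extraction version 10.7.3.1, and the submitters' processing notes 9.1), and the log2 matrix was deposited after background subtraction and quantile normalization with Agi4x44PreProcess. The other flag columns are as deposited. Probe positions are on mm9.

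Here the median local background was subtracted from the mean spot intensity, with a floor of 0.5 and an offset of 50, and log2 values were quantile normalized. Spots flagged as outliers were left out, as were 154 probes left without a spot on some array. Replicate spots were summarized by their median, and a probe was tested if well above background on 75% of the arrays of 1 strain. Strain was fitted with limma 3.58.1 in R 4.3.3, with Benjamini-Hochberg adjustment over 27981 probes. The rank product (100 permutations, pfp of 0.05 or less) and the correlations were run in Python 3.11.15 with NumPy 2.4.6. Both tests were checked on simulated data.

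The members and gene lists were chosen with earlier results of these data known, and lists were written from general knowledge. Named by rule were all members, up to 3 called genes of a list, lists of up to 5 genes and the 10 genes most alike, of which 1 is not reported here. Other list genes were picked with their values in view. Gene annotation of mm9 was not used here.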

Additional observations from a re-analysis of the deposited data

Results flagged for a closer look

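In B6, replicate 2 stood far above the other 3 arrays for 4 of the 12 tested probes, by the gap to the next array as a share of the group's range (Dixon's ratio of 0.837 to 0.957, above the critical value). Its values were 10.64 for Drd2 A_51_P111233, 12.04 for Ppp1r1b, 12.53 for Rgs9 and 12.00 for Rarb. The 12 probes in 2 strains made 24 groups, of which chance passes about 5%, and the members vary together, so these 4 are not independent. BTBR 2 did not pass in any BTBR group, where BTBR 1 lay between it and the other arrays.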

How the results depend on the processing

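No setting of limma called a member probe. Over 269 values of single probes under other settings, 251 kept their direction and their side of the threshold and 16 changed sign. Within slide 2 the difference was -0.65 for Rgs9, -0.33 and -0.15 for the Penk probes A_51_P102987 and A_52_P286166 and -0.64 for Tac1. Without B6 2, BTBR 1 and BTBR 2, a choice made after seeing the data like the removal of B6 2 and BTBR 2 from correlations, these were -0.67, -0.33, -0.10 and -0.49. With 1 array left out the differences ranged from -0.0151 to 1.24 for Drd1a, -0.19 to 0.0756 for Adora2a A_52_P240878, -0.55 to 1.14 for Rgs9, -0.35 to 1.0 and -0.24 to 1.21 for the Penk probes and -0.37 to 0.99 for Tac1, and the low end came without BTBR 2 in each. Adora2a A_52_P240878 turned positive without B6 1 (0.0756) and without BTBR 3 (0.0737). With the probes of each gene combined by their median, Adora2a had 0.49. The rank product called 2 member probes (Drd2 1.05 and Adora2a 1.03) and 1106 probes in all.

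Over all probes limma called between 1533 and 2183 with 1 array left out, 1036 within slide 2 and 1183 without the 3 arrays. Median r among members was 0.97, between 0.93 and 0.98 with 1 array left out, and Spearman rho was 0.74. Replicate numbers matched the arrays only in part (r of same-numbered deviations -0.14, 0.51, -0.10 and 0.39, and 2 of the 4 numbers matched best with themselves). B6 2 and BTBR 2, the arrays with the highest member level, share a replicate number and a slide. A block for replicate number lowered the SE from 0.79 to 0.22 for Drd1a and from 0.91 to 0.38 for Drd2 A_51_P111233. Whether same-numbered mice were paired was not tested. With a replicate block limma called 1650 probes (5.9%) and 0 members, with the lowest member adjusted p at 0.15, and 4 of the 12 member probes (Drd1a, Drd2 A_51_P111233, Adora2a A_51_P387348 and Gpr6) had an unadjusted p under 0.05, each higher in BTBR, against 18.9% of all tested probes in either direction and 9.25% in that direction. Dim signal limits Drd2, Gpr6 and Adora2a A_51_P387348, which B6 1 did not hold well above background. The cause of the sign changes was not tested.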
